A study of Homo sapiens with 6 samples.

Results

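The potassium channel subunit genes of 2 human breast cancer cell lines were examined: MDA-MB-231-D3H2LN (MDA231-LN) and parental MDA-MB-231. MDA231-LN is a commercially supplied subline of the parental cells, known as a luciferase-carrying line that came from a lymph node metastasis grown in a mouse. Parental MDA-MB-231 is a triple-negative line of mesenchymal character. Each line gave 3 libraries of total RNA from cells kept in the same high-glucose medium with 10% serum, and no other treatment or allele is named in the labels. With 1 line of each kind, nodal origin, luciferase, passage through mice and drift in culture cannot be told apart. The labels do not tell whether replicate libraries are separate cultures, and the p-values therefore measure only the spread between these libraries, which may be technical.

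Members were chosen by their symbol: every gene of the deposited table whose symbol begins with KCN, without antisense, intronic and divergent transcripts, KCNRG and the KCNIP genes. This gave 95 of 61541 genes. Of them 91 encode channel subunits and 4 do not. No measured value entered the rule, but the family was picked for description with results of this same comparison known, so counts of its members describe the 2 lines and support nothing further.

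Potassium channels let potassium leave or enter a cell along its gradient and so set the membrane voltage. In tumor cells that voltage bears on cell volume, on the driving force for calcium entry and on the cell cycle. Pore-forming subunits assemble as tetramers, or as dimers in the two-pore class, and auxiliary subunits change their gating or their traffic to the surface. The 5 classes held 40 voltage-gated pore subunit genes, 8 genes of their auxiliary subunits, 16 inward rectifiers, 15 two-pore channels and 12 genes of calcium- or sodium-activated channels. Levels are in CPM, counts divided by the TMM-scaled library size. A gene "rose" or "fell" in MDA231-LN where the edgeR quasi-likelihood test gave a p under 0.05 after Benjamini-Hochberg adjustment over all tested genes.

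The libraries held 17661542 to 18882719 counted fragments in MDA231-LN and 16461578 to 19171017 in the parental line. Replicate libraries were not copies of each other: chi-square over its degrees of freedom was 3.73 to 4.52 between MDA231-LN libraries and 4.67 to 8.47 between parental ones. The mesenchymal and basal markers VIM, CD44, EGFR, AXL and CAV1 were all abundant, at 328 to 1993 CPM in MDA231-LN and 525 to 1091 CPM in the parental line. Markers of the luminal lineage were low or absent in part: ESR1 had 0.951 and 0.164 CPM in MDA231-LN and parental cells, PGR had 0 counts and 1 count, FOXA1 2.63 and 0.179 CPM, GATA3 17.4 and 19.8 CPM. ERBB2 stood at 89.8 and 90.4 CPM. Of these, ESR1 (edgeR adjusted p = 0.00403) and FOXA1 (edgeR adjusted p = 4.11e-07) rose in MDA231-LN, both at a low level. GATA3 and ERBB2 were not called. Of 10 markers of leukocytes, endothelium and fibroblasts, 3 had 0 counts, among them CD3E and LYVE1, although all exonic bases of LYVE1 lie inside another gene. Their summed level was 28.9 to 34.0 CPM in MDA231-LN and 26.2 to 33.5 CPM in the parental line. PROX1, a lymphatic endothelial transcription factor gene on that list, rose to 3.76 ± 0.770 CPM in MDA231-LN, against 0.183 ± 0.126 CPM in parental cells (SD, n = 3 each). Of the same list the endothelial gene VWF fell to 0.227 ± 0.262 CPM in MDA231-LN, against 0.728 ± 0.109 CPM in parental cells, PDGFRB, a gene of fibroblasts and pericytes, fell to 2.89 ± 0.401 CPM in MDA231-LN, against 6.68 ± 1.90 CPM in parental cells, and the endothelial gene PECAM1 was not called. The part of these markers in the results was not tested.

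Potassium channel genes made up a larger share of the RNA in MDA231-LN. The 91 subunit genes together took 0.0380%, 0.0359% and 0.0374% of all counted fragments in the 3 MDA231-LN libraries, against 0.0194%, 0.0178% and 0.0179% in the 3 parental libraries. Their summed level was 367, 351 and 363 CPM in MDA231-LN, against 199, 186 and 184 CPM in parental cells. The 2 groups of libraries did not overlap. In bulk RNA, a change in the number of expressing cells and a change in RNA per cell cannot be told apart. A pair of genes carried much of the family's fragments in every library. KCNN4, the intermediate-conductance calcium-activated channel, held 20.6% to 25.5% of them in MDA231-LN and 25.5% to 27.6% in parental cells. KCNQ5, a voltage-gated channel of the M-current family, held 21.2% to 23.8% in MDA231-LN and 28.0% to 28.4% in parental cells.

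Of the 91 genes, 32 had enough fragments to be tested, at least 0.548 CPM in 3 libraries. Among these 20 rose and 2 fell in MDA231-LN, so that 68.8% were called, beside 62.8% of the 14176 genes tested in all. Of all tested genes 31.6% rose and 31.2% fell. At least 2-fold apart were 15 members that rose and 2 that fell, beside 13.0% and 7.53% of all tested genes. The median log2 fold change of the 32 members was 1.10, and that of all tested genes 0.02. The filter on low counts shapes these counts: 17 members passed it through both lines, 11 through the MDA231-LN libraries alone, 3 through the parental libraries alone and 1 through libraries of both kinds mixed. A gene that passed through 1 line alone was kept for its level in that line. Of the 17 that passed through both lines, 10 rose and 1 fell.

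**Figure D1:**
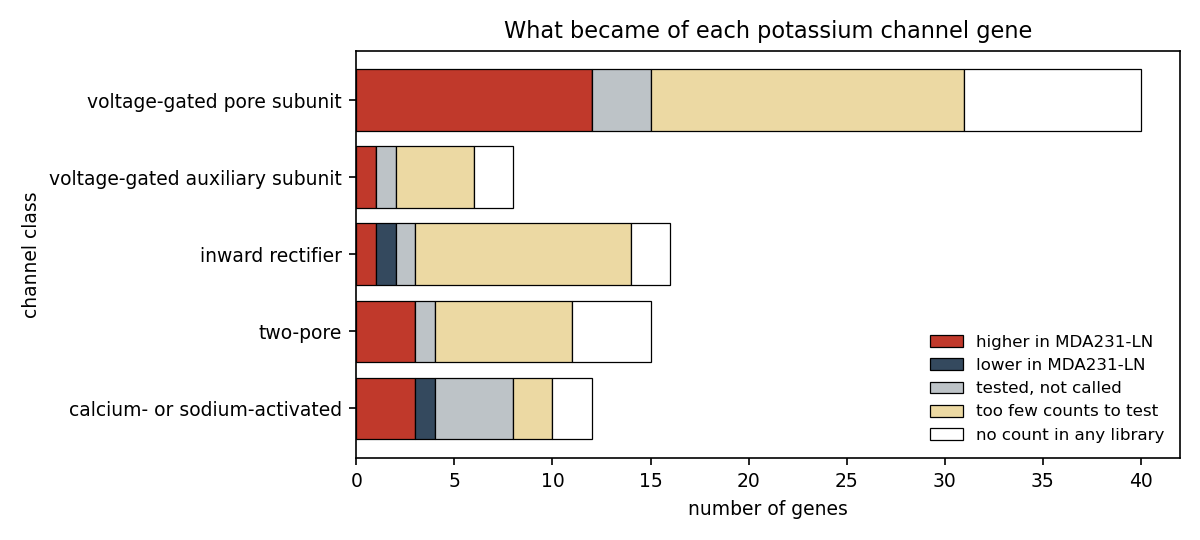
Number of potassium channel subunit genes in each class, by outcome: higher in MDA231-LN, lower in MDA231-LN, tested without a call, too few counts to test, or no count in any library. Voltage-gated pore subunits held 12 of the 20 genes that rose and none of the 2 that fell.

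The other 59 genes were too low to test. Of these, 19 had no count in any library. For 10 of the 19 more than 50% of the exonic sequence is shared with another annotated gene, where fragments were not counted. The lowest share among the 10 was 76.8%, which left 1259 exonic bases to count. In the rest of the 10 it was 99.2% to 100%, so that those were hardly measurable. The other 40 had 1 to 54 fragments over the 6 libraries. Of the 40, 32 (80.0%) had more fragments in the MDA231-LN libraries and 6 (15.0%) had more in the parental libraries. Among all 9982 genes with a count that were too low to test, 64.4% had more fragments in MDA231-LN and 31.1% in the parental line. Each MDA231-LN library also detected more genes, 19839 to 20024 against 17962 to 18196 in the parental libraries.

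The promoters of 5 genes are shown because these genes cover the main patterns: KCNH5 and KCNK2 were at or near 0 in parental cells, KCNK5 rose 9.89-fold over a measurable parental level, and KCNN3 and KCNN2 are close relatives that moved in opposite directions. Sequences are RefSeq promoters on GRCh38.p14, 250 bases before to 50 bases after the annotated start, written 5′ to 3′ on the gene's strand with every CG dinucleotide in capitals. KCNH5 lies on the minus strand at chr14:63045409-63045708, KCNK2 on the plus strand at chr1:215005292-215005591, KCNK5 on the minus strand at chr6:39229426-39229725, KCNN3 on the minus strand at chr1:154870232-154870531 and KCNN2 on the plus strand at chr5:114361820-114362119. The RefSeq starts of KCNH5 and KCNN2 lie inside the longer gene spans over which fragments were counted.
KCNH5: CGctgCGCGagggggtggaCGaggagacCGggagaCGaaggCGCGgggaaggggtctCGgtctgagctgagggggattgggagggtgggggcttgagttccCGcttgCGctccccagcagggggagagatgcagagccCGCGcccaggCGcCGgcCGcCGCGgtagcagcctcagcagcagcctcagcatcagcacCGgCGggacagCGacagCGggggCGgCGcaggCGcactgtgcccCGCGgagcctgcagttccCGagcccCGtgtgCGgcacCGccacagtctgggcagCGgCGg
KCNK2: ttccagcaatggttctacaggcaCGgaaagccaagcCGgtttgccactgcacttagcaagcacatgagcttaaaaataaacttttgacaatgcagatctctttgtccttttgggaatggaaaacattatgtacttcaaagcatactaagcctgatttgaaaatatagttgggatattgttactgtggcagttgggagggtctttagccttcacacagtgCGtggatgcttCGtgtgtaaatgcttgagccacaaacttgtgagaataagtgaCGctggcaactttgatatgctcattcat
KCNK5: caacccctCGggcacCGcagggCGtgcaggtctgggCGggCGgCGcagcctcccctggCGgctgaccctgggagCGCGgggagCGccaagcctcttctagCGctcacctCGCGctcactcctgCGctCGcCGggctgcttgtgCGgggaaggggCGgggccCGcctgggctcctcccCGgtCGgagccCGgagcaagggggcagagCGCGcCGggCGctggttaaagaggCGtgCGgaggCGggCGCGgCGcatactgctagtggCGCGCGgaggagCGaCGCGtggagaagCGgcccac
KCNN3: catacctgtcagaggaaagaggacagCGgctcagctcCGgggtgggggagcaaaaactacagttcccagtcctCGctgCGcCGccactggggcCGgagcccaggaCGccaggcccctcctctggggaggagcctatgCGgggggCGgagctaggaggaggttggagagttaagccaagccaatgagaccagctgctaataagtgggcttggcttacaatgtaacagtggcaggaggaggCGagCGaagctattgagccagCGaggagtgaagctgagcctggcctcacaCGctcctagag
KCNN2: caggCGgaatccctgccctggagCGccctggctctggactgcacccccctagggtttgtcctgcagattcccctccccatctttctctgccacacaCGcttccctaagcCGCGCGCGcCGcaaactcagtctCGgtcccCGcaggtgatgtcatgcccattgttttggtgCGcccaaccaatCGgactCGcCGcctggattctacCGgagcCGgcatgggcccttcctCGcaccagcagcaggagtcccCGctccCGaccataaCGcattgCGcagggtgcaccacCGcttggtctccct

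The promoters differ widely in CG dinucleotides. KCNK5 has 39 and KCNH5 has 33 in 300 bases, KCNN2 has 22, KCNN3 has 13 and KCNK2 has 5. Over all 27305 promoters of the table the median was 14. Promoters were at hand for 67 of the 91 subunit genes, with a median of 17. The 22 tested genes among them had a median of 23, and the 45 untested ones a median of 12. The letters GGGCGG on either strand, the core of a GC box, which overlaps the CG count, were found in 40 of the 67 promoters (59.7%), beside 44.6% of all promoters, and in the promoters of KCNK5, KCNH5 and KCNN3 among those shown. TATAAA on either strand was found in 6 of the 67 (8.96%), beside 12% of all promoters. TGACTCA on either strand, the core of an AP-1 site, was found in 2 (2.99%), beside 4.92% of all. Neither TATAAA nor TGACTCA was in any of the 12 promoters at hand for genes called at least 2-fold with a mean of at least 1 CPM in a line.

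The voltage-gated pore subunits had the most genes that rose: of 40 genes 15 were tested, 12 rose and none fell, with a median log2 fold change of 1.66. Of the 15, 8 passed the filter through the MDA231-LN libraries alone, and of the 6 that passed through both lines 5 rose. Their summed level was 180, 179 and 167 CPM in MDA231-LN, against 86.1, 80.9 and 75.8 CPM in parental cells. Channels of the M-current family, whose slow currents hold neurons below their firing threshold, included several genes that rose. KCNQ3 had 22.3, 21.0 and 18.1 CPM in the MDA231-LN libraries, against 0, 0.0634 and 0 CPM in the parental libraries. A single fragment was seen in all parental libraries, so the gene was near absent there and well expressed in MDA231-LN. The ratio of counts was 1039, with an exact 95% interval of 186 to 41088 that covers counting error only, and the edgeR adjusted p was 7.07e-18. KCNQ3 lies on chromosome 8 from 132120859 to 132481095 of GRCh38. Without parental replicate 2 no parental fragment is left. The subunit is known to join that of KCNQ5 in mixed channels.

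KCNQ5, the most abundant voltage-gated gene per kb of exonic sequence outside other genes, had 80.2, 83.7 and 76.7 CPM in MDA231-LN, against 55.8, 52.7 and 52.2 CPM in parental cells. The groups did not overlap, and the log2 fold change was 0.58 ± 0.07 (SE; edgeR adjusted p = 4.74e-08). On that scale its level was 12 CPM in MDA231-LN and 8.04 CPM in parental cells. Intronic fragments are counted too, so that levels per kb include them. KCNQ1, the cardiac and epithelial member that works with KCNE subunits, had 1.38, 1.61 and 2.62 CPM in MDA231-LN, against 0.0609, 0.127 and 0.214 CPM in parental cells. It rose 13.1-fold (log2 fold change 3.71 ± 0.58, edgeR adjusted p = 3.98e-06) without overlap between the groups, and 34.1% of its exonic sequence is shared with another gene.

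In the ether-à-go-go family 2 of 4 tested genes rose, and none fell, beside 31.6% and 31.2% of all tested genes. KCNH5, KCNH3 and KCNH8 passed the filter through the MDA231-LN libraries alone, and KCNH1 through the parental libraries alone. Each was thus kept for its level in that line. KCNH5 had 3.74, 6.04 and 4.68 CPM in MDA231-LN and no fragment in any parental library. It was 81.2-fold higher in MDA231-LN against a floor of 3 counts over the parental libraries, a fold that leaves out the counting error of MDA231-LN (edgeR adjusted p = 7.65e-11). The gene lies on chromosome 14 from 62699464 to 63102037, with none of its exonic bases inside another gene. Its closest relative KCNH1, known for expression in many tumors, had 1.38, 0.499 and 0.822 CPM in MDA231-LN, against 1.16, 1.08 and 1.07 CPM in parental cells. These groups overlapped, and there was no call (log2 fold change -0.28 ± 0.45, edgeR adjusted p = 0.613), with 65.2% of its exonic bases overlapped. KCNH3, of the ELK branch, rose 4.34-fold at a low level (0.961 ± 0.151 CPM in MDA231-LN, 0.218 ± 0.160 CPM in parental cells; SD, n = 3 each). KCNH8, of the same branch, had 0.994 ± 0.203 CPM in MDA231-LN and 0.406 ± 0.497 CPM in parental cells, and missed the threshold (edgeR adjusted p = 0.0696). Without parental replicate 1, which alone held 16 of its 20 parental fragments, KCNH8 was called at a log2 fold change of 3.01 (edgeR adjusted p = 0.00225). With any other library left out its log2 fold change was 0.75 to 1.45, without a call (edgeR adjusted p = 0.109 to 0.301). KCNH2, the HERG channel gene, had 9 fragments over the MDA231-LN libraries and 0 over the parental libraries.

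Channels of the Shaw family, which open at high voltage and allow rapid repolarisation, are represented by KCNC4, which rose. It had 18.7, 17.4 and 16.0 CPM in MDA231-LN, against 5.85, 9.25 and 4.60 CPM in parental cells. The lowest MDA231-LN library exceeded the highest parental one. The log2 fold change was 1.42 ± 0.18 (edgeR adjusted p = 9.66e-08). KCNC1, of the same family, had 9, 1 and 10 fragments in the MDA231-LN libraries and 1 in each parental library, so the groups overlapped. The ratio of the sums was 5.95 (exact 95% interval 1.76 to 31.3, for counting error only). KCND1, a channel of the transient A-type current, rose 1.58-fold (3.45 ± 0.429 CPM in MDA231-LN, 2.16 ± 0.619 CPM in parental cells; edgeR adjusted p = 0.0483). That call was lost in 7 of the 15 alternative analyses, among them leaving out parental replicate 2 (adjusted p = 0.188) or any 1 of the MDA231-LN libraries (adjusted p = 0.0501 to 0.147).

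**Figure D2:**
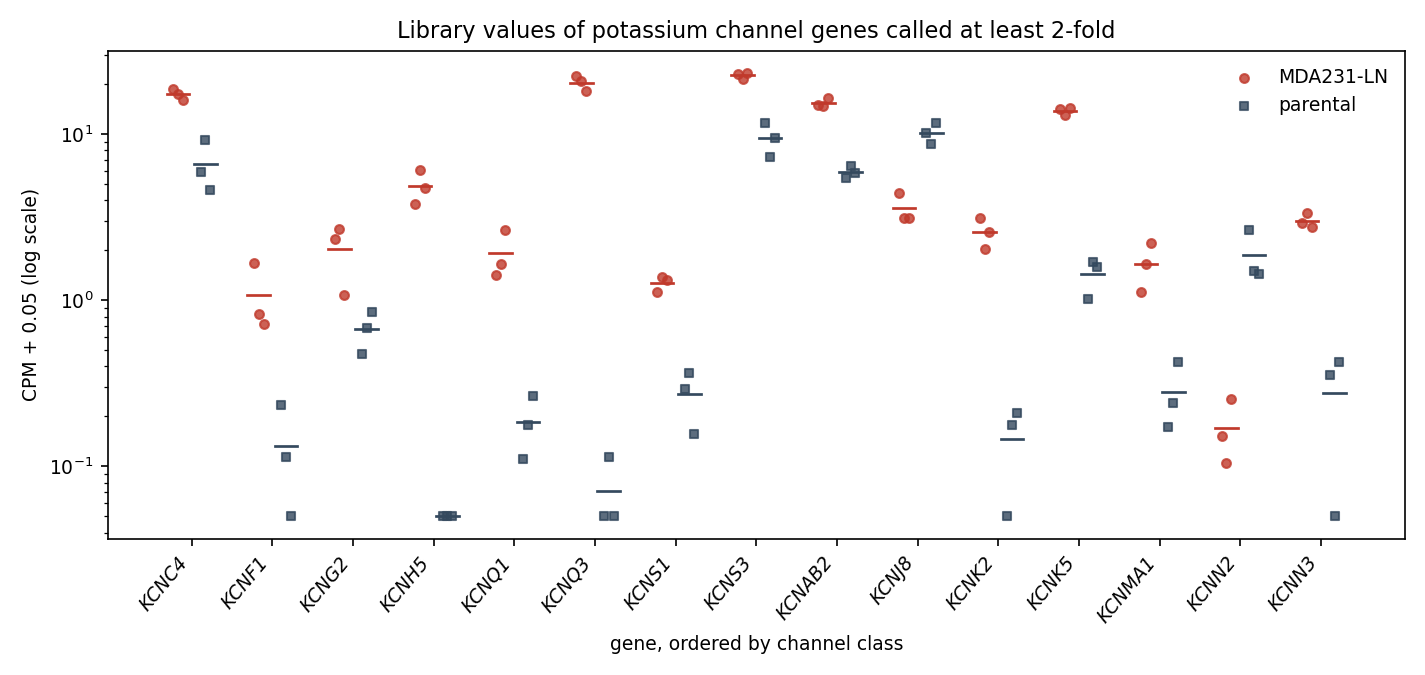
CPM plus 0.05 on a log axis for each library of 15 potassium channel genes called at least 2-fold with a mean of at least 1 CPM in a line; circles are MDA231-LN, squares parental, and short lines the means of the plotted values. For each gene the 2 groups of points are apart, and KCNJ8 and KCNN2 are the pair with MDA231-LN below parental.

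Electrically silent subunits, which form no channel alone and modify channels made by the KCNB genes, rose in 4 of 4 tested cases, of which KCNF1, KCNG2 and KCNS1 passed the filter through the MDA231-LN libraries alone and only KCNS3 through both lines. KCNS3 had 23.2, 21.6 and 23.4 CPM in MDA231-LN, against 11.6, 7.23 and 9.42 CPM in parental cells (log2 fold change 1.27 ± 0.14, edgeR adjusted p = 9.66e-09). KCNG2 had 2.31, 2.66 and 1.03 CPM in MDA231-LN, against 0.427, 0.634 and 0.803 CPM in parental cells (log2 fold change 1.66 ± 0.46, edgeR adjusted p = 0.00262). Both genes were separated between the lines, KCNG2 by a small margin. KCNS1 had 1.08, 1.33 and 1.28 CPM in MDA231-LN, against 0.244, 0.317 and 0.107 CPM in parental cells (log2 fold change 2.46 ± 0.56, edgeR adjusted p = 0.000438). KCNF1 had 1.64, 0.776 and 0.668 CPM in MDA231-LN, against 0.183, 0.0634 and 0 CPM in parental cells (log2 fold change 3.59 ± 0.77, edgeR adjusted p = 0.000214), and this value moved to 4.84 without parental replicate 1 and to 2.98 without parental replicate 3. For both the lines stayed apart at low levels. Of their partner genes, KCNB2 had no count in any library. Among other silent subunits, KCNG3 had 11 and 6 fragments in MDA231-LN and parental cells, KCNV2 21 and 22, KCNV1 7 and 0, and KCNG4 4 and 0.

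Channels of the Shaker family, the KCNA genes, were near the limit of detection. None of the 8 could be tested. KCNA2 had 26 fragments over the MDA231-LN libraries and 0 over the parental ones, 7.73-fold higher against the floor, without the counting error of MDA231-LN. KCNA1 and KCNA6 had no count, but all of their exonic bases lie inside other genes. Of the 8 auxiliary subunit genes of voltage-gated channels 2 were tested and 1 rose. KCNAB2, a cytoplasmic beta subunit, had 14.9, 14.7 and 16.6 CPM in MDA231-LN, against 5.42, 6.40 and 5.78 CPM in parental cells. It rose 2.63-fold (log2 fold change 1.39 ± 0.15, edgeR adjusted p = 5.18e-09) with no overlap. KCNAB3 had 2.85 ± 0.426 CPM in MDA231-LN and 2.19 ± 0.241 CPM in parental cells (SD, n = 3 each) and was not called. Of the KCNE genes, small membrane-spanning partners, KCNE1 had 22 fragments in MDA231-LN and 5 in parental cells, KCNE5 had 6 and 5, KCNE4 had 1 and 0, and KCNE2 and KCNE3 lie almost wholly inside other genes and had none.

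Two-pore channels, which carry the background leak of potassium, rose in 3 of 4 tested cases, out of 15 genes, with a median log2 fold change of 2.08, and 1 of the 4 passed the filter through the MDA231-LN libraries alone. Their summed level was 38.8, 37.5 and 37.3 CPM in MDA231-LN, against 17.7, 15.3 and 14.6 CPM in parental cells. KCNK5, an alkaline-activated leak channel, had 14.2, 13.1 and 14.3 CPM in MDA231-LN, against 0.975, 1.65 and 1.55 CPM in parental cells. It rose 9.89-fold (log2 fold change 3.31 ± 0.20, edgeR adjusted p = 1.60e-13), the groups being far apart, and lies on chromosome 6 from 39188971 to 39229475. KCNK2, a leak channel opened by membrane stretch, had 3.07, 2.00 and 2.52 CPM in MDA231-LN, against 0, 0.127 and 0.161 CPM in parental cells. It rose 24.2-fold at a low level (log2 fold change 4.60 ± 0.59, edgeR adjusted p = 1.89e-07), or by 5.19 on the log2 scale without parental replicate 3. KCNK1, a weak inward rectifier of this class, had 10.6, 12.3 and 10.5 CPM in MDA231-LN, against 7.31, 6.40 and 4.76 CPM in parental cells (log2 fold change 0.86 ± 0.17, edgeR adjusted p = 9.06e-05). KCNK6, its close relative, averaged 9.24 ± 0.439 CPM in MDA231-LN and 7.52 ± 0.940 CPM in parental cells (SD, n = 3 each); the groups did not overlap, but there was no call (edgeR adjusted p = 0.107). Per kb of exonic sequence outside other genes, KCNK5 stood at 3.69 CPM in MDA231-LN and 0.371 CPM in parental cells, and KCNK1 at 3.06 and 1.70 CPM. In MDA231-LN the level of KCNK5 was thus near that of KCNK1, and in parental cells well under it.

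Inward rectifiers, which pass potassium more easily into the cell than out of it, moved in both directions: of 16 genes 3 were tested, 1 rose and 1 fell. KCNJ14 had 28.0, 26.9 and 28.9 CPM in MDA231-LN, against 15.1, 13.6 and 14.9 CPM in parental cells, and rose 1.92-fold (log2 fold change 0.94 ± 0.10, edgeR adjusted p = 1.38e-08). KCNJ8, a pore subunit of ATP-sensitive channels, had 4.41, 3.10 and 3.08 CPM in MDA231-LN, against 10.1, 8.75 and 11.6 CPM in parental cells. It fell 2.87-fold (log2 fold change -1.52 ± 0.19, edgeR adjusted p = 1.50e-07) without overlap, while 67.2% of its exonic bases lie inside another gene, so that its value comes from the remaining 815 bases and its intron. The other pore subunit of these channels, KCNJ11, had 2.31 ± 0.435 CPM in MDA231-LN and 1.42 ± 0.410 CPM in parental cells (SD, n = 3 each), and was not called (edgeR adjusted p = 0.0888). ABCC9, a sulphonylurea receptor that completes such channels, rose, with 1.47 ± 0.263 CPM in MDA231-LN and 0.331 ± 0.382 CPM in parental cells (edgeR adjusted p = 0.00370). ABCC8, the pancreatic receptor, had 2 fragments in MDA231-LN and 0 in parental cells. KCNJ15 had 24 fragments over the MDA231-LN libraries and 1 over the parental ones, a ratio of 21.4 (exact 95% interval 3.49 to 881). KCNJ12 and KCNJ18 are near-identical copies, and their values (7 and 9 fragments in MDA231-LN and parental cells for KCNJ12, 10 and 0 for KCNJ18) are uncertain because fragments that map to both were not counted. KCNJ2, the classical inward rectifier, had no count in any library, which allows up to 0.0526 CPM in MDA231-LN and 0.0590 CPM in parental cells at a floor of 3 counts per line.

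Calcium-activated channels link intracellular calcium to the membrane voltage, and their genes moved in both directions. Of the 12 genes of calcium- or sodium-activated channels 8 were tested, 3 rose and 1 fell, with a median log2 fold change of 0.08. Only 3 of the 8 passed the filter through both lines, and of these 1 rose and 0 fell. KCNN3 and KCNMA1 passed it through the MDA231-LN libraries alone and KCNN2 through the parental libraries alone, so each was kept for its level in the line where it is high. KCNN4 was the most abundant potassium channel gene per kb of exonic sequence outside other genes, at 24.3 CPM in MDA231-LN and 14.7 CPM in parental cells. It had 84.0, 72.4 and 92.3 CPM in MDA231-LN, against 50.8, 51.3 and 48.0 CPM in parental cells, and rose 1.66-fold (log2 fold change 0.73 ± 0.08, edgeR adjusted p = 1.05e-08). The gene lies on chromosome 19 from 43766533 to 43780976. Among the small-conductance channels, KCNN3 had 2.87, 3.33 and 2.72 CPM in MDA231-LN, against 0.305, 0 and 0.375 CPM in parental cells. KCNN2 had 0.102, 0.0554 and 0.206 CPM in MDA231-LN, against 2.62, 1.46 and 1.39 CPM in parental cells. KCNN3 was thus high and KCNN2 low in every MDA231-LN library, and the parental libraries showed the opposite. KCNN3 rose 12.3-fold (log2 fold change 3.63 ± 0.51, edgeR adjusted p = 7.32e-07), and KCNN2 fell 14.1-fold (log2 fold change -3.82 ± 0.59, edgeR adjusted p = 3.56e-06). The remaining gene of this group, KCNN1, had 0.599 ± 0.108 CPM in MDA231-LN and 1.07 ± 0.291 CPM in parental cells (SD, n = 3 each), and its groups did not overlap, but it was not called (edgeR adjusted p = 0.131).

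The large-conductance channel gene KCNMA1, whose pore opens to both voltage and calcium, had 1.08, 1.61 and 2.16 CPM in MDA231-LN, against 0.122, 0.190 and 0.375 CPM in parental cells. It rose 6.72-fold (log2 fold change 2.75 ± 0.55, edgeR adjusted p = 9.35e-05). Neither tested beta subunit gene of that channel was called. KCNMB3 had 1.12 ± 0.206 CPM in MDA231-LN and 2.09 ± 0.988 CPM in parental cells, with an edgeR adjusted p of 0.0561. That p became 0.00734 without parental replicate 2, and it was 0.0772 to 0.22 with any other library left out. KCNMB4 had 1.42 ± 0.485 CPM in MDA231-LN and 1.62 ± 0.595 CPM in parental cells. KCNMB1 and KCNMB2 lie wholly inside other genes and had no count. Of the sodium-activated channels, KCNT2 had 48 fragments in MDA231-LN and 6 in parental cells, and KCNT1 28 and 6, both too low to test. KCNU1, a sperm channel gene, had 0.685 ± 0.260 CPM in MDA231-LN and 0.536 ± 0.203 CPM in parental cells and was not called.

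**Figure D3:**
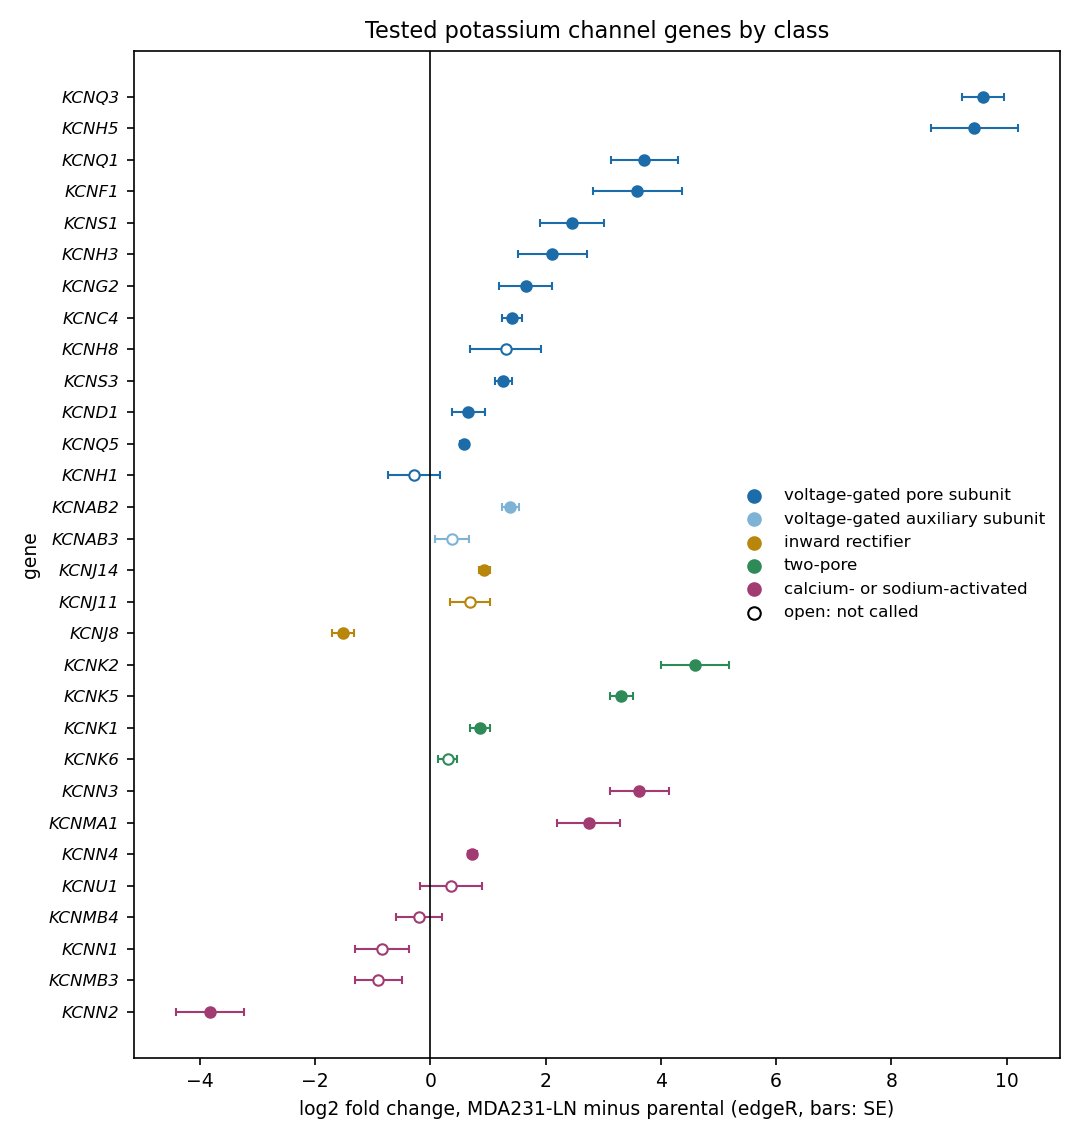
Log2 fold change of MDA231-LN minus parental with its SE for 30 of the 32 tested potassium channel genes, ordered by class; filled points were called at an adjusted p under 0.05. Of the 30, 24 lie right of 0. The values of KCNQ3 and KCNH5 are fitted against 1 and 0 parental fragments, and that of KCNH5 has no upper bound.

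The neighbourhood of each gene was set beside it, to show how other genes of the same region compared between the lines. Of the 16 genes called at least 2-fold with a mean of at least 1 CPM in a line, 14 had 20 or more other tested genes starting within 5 Mb. For 7 of them, among these KCNK5, KCNK2, KCNQ1 and KCNMA1, the median log2 fold change of the neighbours was within 0.1 of 0. Neighbours of KCNC4 were higher in MDA231-LN by a median of 0.45, and those of KCNH5 by 0.31. The neighbours of KCNN2 had a median of -0.61, in its own direction. KCNN3 rose in a region with a median of -0.95, and KCNJ8 fell in one with a median of 0.53. Among genes that rose less than 2-fold, KCNN4 at 0.73 had neighbours with a median of 0.55, and KCNJ14 at 0.94 neighbours with 0.56. For KCNK1 at 0.86 the median was 0.10, for KCND1 at 0.66 it was 0.15 and for KCNQ5 at 0.58 it was -0.22. The part of these regional differences in the values of single genes was not tested.

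**Figure D4:**
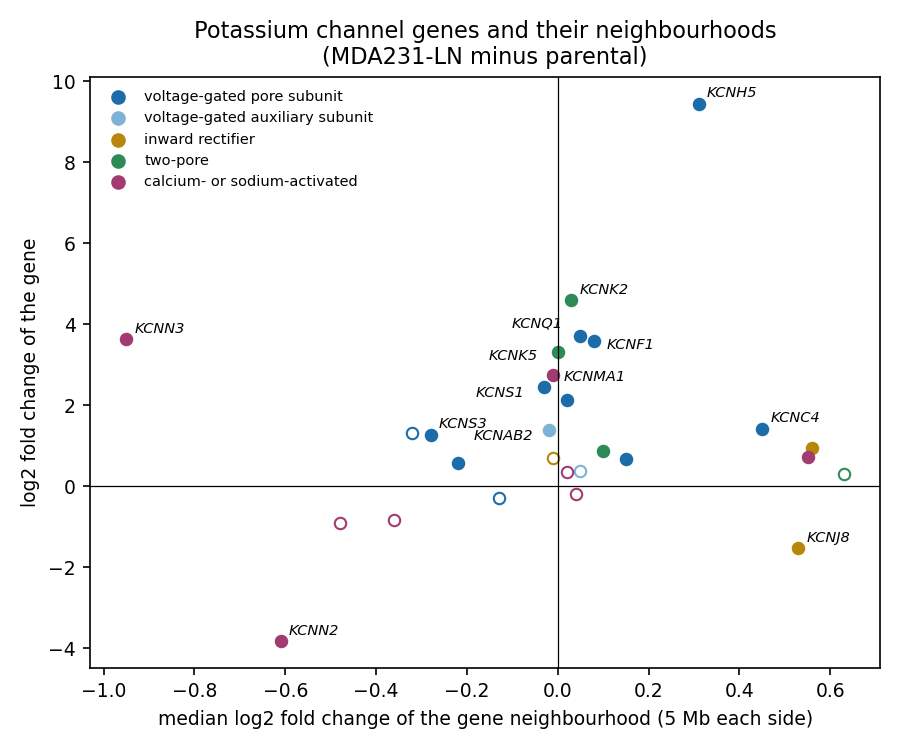
Log2 fold change of 28 tested potassium channel genes against the median log2 fold change of other tested genes within 5 Mb on each side, MDA231-LN minus parental; filled points were called, and names mark those called at least 2-fold with a mean of at least 1 CPM in a line. KCNN3 at 3.63 sits above a neighbourhood at -0.95, and KCNJ8 at -1.52 below one at 0.53.

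Genes of proteins that bind or anchor potassium channels without being counted here as subunits, the KCNIP genes among them, went both ways. Of 26 such genes 15 could be tested, and 5 rose and 3 fell, with a median log2 fold change of 0.06. Over all tested genes 31.6% rose and 31.2% fell, so calls in both directions were common throughout. ANK3, the ankyrin that anchors M-current channels in neurons, had 34.6 ± 1.36 CPM in MDA231-LN and 4.99 ± 0.463 CPM in parental cells (SD, n = 3 each; log2 fold change 2.79, edgeR adjusted p = 1.29e-16). DLG1, a membrane scaffold, fell to 121 ± 2.23 CPM in MDA231-LN, against 251 ± 12.4 CPM in parental cells (log2 fold change -1.05, edgeR adjusted p = 1.17e-14). KCNIP4, a calcium-binding partner of A-type channels, rose at a low level (1.57 ± 0.315 CPM in MDA231-LN, 0.432 ± 0.328 CPM in parental cells), with 51.4% of its exonic bases overlapped. CALM3, a gene of calmodulin, the calcium sensor bound by KCNN and KCNQ channels, rose to 222 ± 9.10 CPM in MDA231-LN, against 146 ± 5.21 CPM in parental cells, and was named after its value was seen.

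Other potassium transport genes were likewise split. Of 20 genes 11 were tested, 4 rose and 4 fell, with a median log2 fold change of -0.14, beside 31.6% and 31.2% of all tested genes. SLC12A7, a potassium-chloride cotransporter, had 123 ± 6.71 CPM in MDA231-LN and 24.7 ± 2.28 CPM in parental cells (log2 fold change 2.31, edgeR adjusted p = 5.41e-19). HCN2 rose and HCN3 fell, both cation channels opened by hyperpolarisation: HCN2 had 13.7 ± 1.23 CPM in MDA231-LN and 3.53 ± 0.745 CPM in parental cells, and HCN3 had 7.67 ± 0.322 CPM in MDA231-LN and 18.7 ± 2.90 CPM in parental cells. SLC12A5, the neuronal cotransporter, rose to 2.81 ± 0.208 CPM in MDA231-LN, against 0.993 ± 0.173 CPM in parental cells.

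Genes of calcium entry and release, which supply the calcium that opens KCNN and KCNMA channels, gave 13 tested genes. Among these 3 rose and 4 fell, beside 31.6% and 31.2% of all tested genes, and their median log2 fold change was 0.02. The voltage-gated calcium channel genes CACNA1G and CACNA1D were among those that rose, both at a low level. CACNA1G had 1.87 ± 0.851 CPM in MDA231-LN and 0.117 ± 0.102 CPM in parental cells, and CACNA1D had 1.61 ± 0.450 and 0.0813 ± 0.141 CPM. ORAI1, the pore of store-operated calcium entry, fell to 61.7 ± 1.49 CPM in MDA231-LN, against 97.7 ± 9.05 CPM in parental cells, and was named after its value was seen.

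Finally, 4 symbols that begin with KCN encode no subunit. KCNQ1OT1, the long antisense RNA of the imprinted KCNQ1 locus, and KCNK4-TEX40, a readthrough transcript, lie wholly or mostly inside other genes and had no count. KCNQ1DN had 3 fragments in MDA231-LN and 3 in parental cells, and the pseudogene KCNMB3P1 had 1 and 0.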

How the data were processed

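RNA of 3 MDA231-LN and 3 parental libraries was used, with the cell line in the labels as the group. The authors deposited raw counts per gene, which featureCounts 2.0.1 produced from Ensembl release 105 (GRCh38), per the file headers. Per the file headers whole genes were counted, introns included, without strand, and fragments touching more than 1 gene or place were left out. Per the submitters' processing notes reads were aligned with STAR, whose version is not given in the sources used here, and DESeq2 was used, whose output is not used here.

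Symbols were found for 61369 of 61541 genes (99.7%). Exon lengths and overlaps came from GENCODE 29 on the same build. Genes passing filterByExpr (14176) were tested with edgeR 4.0.16 in R 4.3.3 (TMM, quasi-likelihood, Benjamini-Hochberg), MDA231-LN minus parental, with a common biological coefficient of variation of 0.0691. The fit was tested on simulated data. Where a line had 0 counts over its libraries, a fold is given against a floor of 3 counts, which allows for counting error in that line only. With 1 to 3 counts a ratio with an exact 95% interval is given, which covers counting error only. Replicate numbers did not pair the libraries.

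Library values are given for members called at least 2-fold with a mean of at least 1 CPM in a line; the 2 members of each class highest per kb of exon are also described. From each partner list up to 4 called genes at least 2-fold apart are named, by lowest adjusted p. Members, lists and rules were chosen with earlier results of these data known. Alternatives were RLE and upper-quartile scaling, 2 other filters, the replicate block, each library left out in turn, limma-voom 3.58.1, DESeq2 1.42.0, a stricter threshold of 0.01 and leaving out genes over 50% overlapped. Some genes are counted in the totals but not reported here by name, and are left out of the figures of single genes.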

Additional observations from a re-analysis of the deposited data

How the results depend on the processing

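Over 15 alternatives the number of potassium channel genes that rose was 18 to 23 against 20 as reported, and 13 to 18 rose at least 2-fold against 15. The number that fell was 1 to 3 against 2. With genes removed whose exonic sequence is shared with another gene for more than 50%, there was 1 gene that fell and 1 that fell at least 2-fold, since KCNJ8 is among the genes removed. Leaving out each library in turn gave 19 to 23 genes that rose, 15 to 18 at least 2-fold, 2 to 3 that fell and 2 to 3 at least 2-fold. Of 472 values of single genes, 454 kept their side of the threshold. No call reversed. KCNMB4, which was not called, changed sign, from -0.20 to 0.15 without parental replicate 3 and to 0.04 without MDA231-LN replicate 3. Of the rest, 7 values lost a call, all of KCND1, and 11 gained one. KCNH8, KCNJ11, KCNK6 and KCNMB3 were among those that gained one; the cause was not tested. Upper-quartile scaling moved the median of all tested genes to 0.13, and no filter to 0.15, from 0.02 as reported. Same-numbered libraries did not deviate together (r of -0.0526 to 0.00241), so the numbers do not pair the samples; with the replicate block 20 genes rose, 16 at least 2-fold, and 2 fell. Low counts kept 59 genes from being tested, and for 20 of the 91 genes, tested ones included, most exonic sequence lies inside another gene and could not be counted.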

Other observations

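The rule left out 28 symbols that begin with KCN, of which 22 are antisense, intronic or divergent transcripts, and 19 of the 28 had no count in any library. KCNMB2-AS1, a transcript antisense to a gene that could not be measured itself, had 72 fragments over the MDA231-LN libraries and 1 over the parental ones, a ratio of 64.2 (exact 95% interval 11.2 to 2572, edgeR adjusted p = 8.32e-06), and 85.4% of its exonic sequence is shared with another gene. KCNIP3, a calcium-binding partner of A-type channels that also acts as a transcriptional repressor, had the most fragments of the left-out genes and fell to 38.4 ± 5.15 CPM in MDA231-LN, against 51.6 ± 2.07 CPM in parental cells (SD, n = 3 each; edgeR adjusted p = 0.000153). KCNQ5-DT, which starts beside KCNQ5, had 33 fragments over the MDA231-LN libraries and 9 over the parental ones, too few to test.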
